A study of Mus musculus with 6 samples.

Results

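The Ly6 genes encode small cell-surface proteins, most of them held in the membrane by a glycosylphosphatidylinositol (GPI) anchor and built on the cysteine-rich LY6/uPAR fold. Many of them lie side by side on mouse chromosome 15 and are used as surface markers of blood cells, and several are induced by interferon. The 7 genes followed here were Ly6a, Ly6c1, Ly6d, Ly6e, Ly6f, Ly6g and Ly6k. They were taken from the probesets annotated with exactly 1 gene symbol, which gave 7 probesets for 6 of these genes, out of 23521 such probesets and 41345 probesets in all. No probeset was annotated with Ly6a, alone or among several symbols, so Ly6a, the haematopoietic stem cell marker Sca-1, was not analysed here. Of these 6 genes, 5 entered the statistical fit over 14020 genes. The members were chosen by family name with their deposited log2 values in all 3 groups in view, so their levels and differences are a description, no p-value of a member is given, and nothing is read from counts of members past the fit's threshold.

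The data come from 6 Affymetrix mouse gene arrays (GeneChip Mouse Gene 2.0 ST), each hybridised with RNA released by heat from 10 pooled blastocysts. All blastocysts, the comparison group included, came from let7g-transgenic mice, so every group carried the transgene. The groups, with 2 arrays each, were activated blastocysts of day 4 (D4-act-7g), day 7 blastocysts that had become dormant in the uterus (Dor-7g), and day 7 blastocysts driven into dormancy in culture by inducing let-7 with DOX (DOX-7g). Diapause is the arrest of a blastocyst before implantation, and the study examined the part of the microRNA let-7 in it. The promoter that drives the transgene, the mouse background and whether both arrays of a group came from separate litters are not given in the sources used here, so p-values measure only the spread between these arrays, which may be technical. DOX-7g and D4-act-7g differ in dormancy, let-7 induction, day, culture and DOX exposure, which cannot be told apart. For Dor-7g and D4-act-7g dormancy and day cannot be told apart either. DOX-7g and Dor-7g differ in culture against uterus, let-7 induction and DOX exposure, which again cannot be told apart.

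The deposited values are log2 expression values. A level below the median of all probesets of its array is called dim. These medians lay between 4.62 and 4.67 on 5 arrays and at 4.87 on Dor-7g replicate 1, which also correlated least with the other arrays (Pearson's r 0.899 to 0.919 across probesets). At or above the array median on all 6 arrays were 8 of 10 trophectoderm markers (Krt8 at 9.80 to 11.30 and Cdx2 at 6.43 to 7.48), 7 of 10 inner cell mass markers (Pou5f1 at 5.83 to 6.13) and 6 of 8 primitive endoderm markers (Gata6 at 6.43 to 7.19). The inner cell mass markers Sox2 and Esrrb were dim on all arrays, at 3.60 to 3.92 and 3.93 to 4.32. All 8 inner cell mass markers in the fit had a lower mean in DOX-7g than in either other group (median differences -0.36 from D4-act-7g and -0.51 from Dor-7g), and none was called by limma (2 and 3 at an unadjusted p under 0.05). Of the uterine stroma markers, Dcn read 9.29 on Dor-7g replicate 2 against 3.67 to 4.22 on the other 5 arrays. Lum was also highest on that array, at 5.01 against 3.44 to 4.13. All 8 stroma markers were at or above the array median there, and 6 on each of the other arrays. The summed linear signal of that list was 1000 there and 316 to 402 elsewhere. All 8 uterine epithelium markers in the fit had a higher mean in Dor-7g than in D4-act-7g (median difference 0.31, none called by limma, 2 at an unadjusted p under 0.05). So did 7 of 8 primitive endoderm, 5 of 6 uterine stroma, 6 of 10 trophectoderm and 4 of 8 inner cell mass markers in the fit. In DOX-7g, 7 of the 8 uterine epithelium markers were also higher than in D4-act-7g (median difference 0.16). Over all genes the median differences from D4-act-7g were 0.06 in Dor-7g and -0.05 in DOX-7g. Foxa2 is on both the uterine epithelium and the primitive endoderm list. The cause of these differences was not tested. In whole blastocysts, fewer cells of one type and less RNA per cell cannot be told apart.

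In the RefSeq gene order of mouse assembly GRCm38.p6, 23 listed genes of the family lie on chromosome 15, among them all 7 members. Of the members, 3 have a promoter window in the RefSeq table used here, as do 35 of 54 other family genes. The windows of Ly6f and Ly6g are shown because these members had the widest value ranges over the arrays, and that of Ly6c2 because this neighbour also had its lowest values in Dor-7g. Each runs from 250 bases before to 50 bases after the transcription start and is written 5′ to 3′ on the gene's own strand. Capitals mark every match to TATAAA, the letters of a TATA box, or to GAGGAAGT, the core bound by ETS factors such as the myeloid factor PU.1. The windows lie at chr15:75268171-75268470 on the plus strand for Ly6f, at chr15:75155079-75155378 on the plus strand for Ly6g and at chr15:75111922-75112221 on the minus strand for Ly6c2.
Ly6f: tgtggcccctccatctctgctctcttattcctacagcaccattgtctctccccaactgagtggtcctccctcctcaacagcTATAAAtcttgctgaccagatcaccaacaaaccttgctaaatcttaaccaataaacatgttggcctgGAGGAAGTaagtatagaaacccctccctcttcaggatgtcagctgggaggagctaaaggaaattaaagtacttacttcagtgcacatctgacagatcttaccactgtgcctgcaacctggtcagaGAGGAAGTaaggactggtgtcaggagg
Ly6g: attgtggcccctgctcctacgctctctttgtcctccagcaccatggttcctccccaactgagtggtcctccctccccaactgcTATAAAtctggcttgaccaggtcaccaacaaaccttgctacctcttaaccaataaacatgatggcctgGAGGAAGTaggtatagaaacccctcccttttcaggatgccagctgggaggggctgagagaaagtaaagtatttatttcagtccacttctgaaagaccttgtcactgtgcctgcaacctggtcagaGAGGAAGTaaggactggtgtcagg
Ly6c2: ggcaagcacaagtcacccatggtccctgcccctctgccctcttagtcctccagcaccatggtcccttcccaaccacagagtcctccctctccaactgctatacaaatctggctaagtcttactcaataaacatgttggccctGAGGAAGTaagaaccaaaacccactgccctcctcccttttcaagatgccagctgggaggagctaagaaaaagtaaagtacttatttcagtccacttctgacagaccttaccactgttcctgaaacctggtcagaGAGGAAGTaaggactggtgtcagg
Where a gene had several windows, the one with the most positions identical to the Ly6f window was used. Identities and shared motifs were therefore selected for likeness to Ly6f. The Ly6f and Ly6g windows were identical at 263 of 298 aligned positions (88.3%). Ly6c2 matched Ly6f at 229 of 306 (74.8%) and Ly6g at 233 of 309 (75.4%). Ly6c1, which was dim on all arrays, was closer to both, at 77.7% to Ly6f and 78.9% to Ly6g. The closest pair was Ly6c2 and Ly6a2 (96.7%), whose levels differed. Any link between likeness of windows and expression was not tested. Among the 5 family genes of the locus with a window (Ly6c1, Ly6c2, Ly6a2, Ly6g and Ly6f), 3 held TATAAA, namely Ly6c1, Ly6g and Ly6f. GAGGAAGT was held by 3, namely Ly6c2, Ly6g and Ly6f, with 2 matches each. The TATAAA matches began 143 to 169 bases before the transcription start. In each gene with GAGGAAGT, the first match began 99 to 108 bases before the start and the second 23 to 26 bases after it. Searched on both strands, TATAAA was present in 13.6% and GAGGAAGT in 3.2% of 32851 promoter windows of this length. The STAT-binding letters TTCNNNGAA, found in 8.3% of windows, had no match in any of these 5 windows. The motifs were chosen with the sequences in view, and a match is a description of letters only.

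Ly6f encodes a Ly6 antigen whose function is little described. Its probeset 17312229 read 10.60 and 10.63 on the D4-act-7g arrays, 4.86 and 4.86 on the Dor-7g arrays, and 8.36 and 9.49 on the DOX-7g arrays. The 3 groups did not overlap, with the day 4 activated arrays highest and the in vivo dormant arrays lowest. With 2 arrays a group, other genes can separate likewise, and their share was not counted. In Dor-7g the level lay at the array median, below it on replicate 1 and above it on replicate 2, so Ly6f was close to dim there and bright in both other groups. The difference between Dor-7g and D4-act-7g was -5.75 ± 0.37 log2 units (limma's moderated SE, n = 2 arrays each), a 54.0-fold lower signal. DOX-7g stood -1.68 ± 0.37 from D4-act-7g and 4.07 ± 0.37 above Dor-7g. The DOX-7g arrays differed from each other by more than those of the other groups, with an SD of 0.80 against 0.02 in D4-act-7g. Without DOX-7g replicate 1 the difference from D4-act-7g was -1.12, and without replicate 2 it was -2.25.

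Ly6g, the Gr-1 antigen, is the standard surface marker of mouse neutrophils. Probeset 17312219 read 3.65 and 4.08 on the D4-act-7g arrays, 3.75 and 4.25 on the Dor-7g arrays, and 7.41 and 7.39 on the DOX-7g arrays. The D4-act-7g and Dor-7g arrays overlapped and all 4 were dim, whereas both DOX-7g arrays lay far above the array median. The DOX-7g level was 3.54 ± 0.25 above D4-act-7g (11.6-fold) and 3.40 ± 0.25 above Dor-7g (10.6-fold), both against dim groups (SE, n = 2 each). Ly6g entered the fit through its DOX-7g arrays alone, so a difference there was built into its entry. The difference of Dor-7g from D4-act-7g was 0.14 ± 0.25, and it lay between -0.12 and 0.39 when single arrays were left out.

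**Figure D1:**
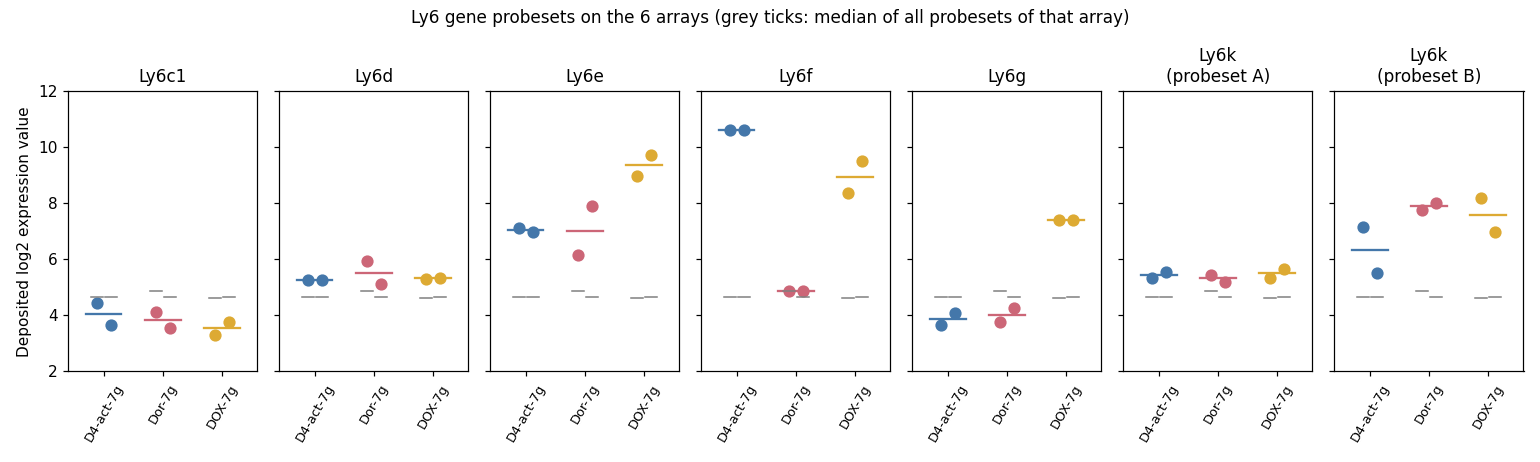
Deposited log2 expression value (y axis) of each of the 7 member probesets, by group (x axis). Points are single arrays, coloured lines group means and grey ticks the median of all probesets of that array; Ly6f is lowest in Dor-7g, Ly6g is above the ticks in DOX-7g only, and for Ly6k probeset A is 17312196 and probeset B is 17318029.

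Ly6e is expressed in many tissues, is induced by interferon, and in the mouse placenta serves as the receptor of the cell-fusion protein syncytin-A. Its probeset 17312209 read 7.11 and 6.98 on the D4-act-7g arrays, 6.16 and 7.89 on the Dor-7g arrays, and 8.99 and 9.72 on the DOX-7g arrays. All 6 arrays lay above the array median, the DOX-7g arrays were the highest, and the Dor-7g arrays lay on either side of D4-act-7g. DOX-7g was 2.31 ± 0.58 above D4-act-7g (4.96-fold) and 2.33 ± 0.58 above Dor-7g (5.03-fold; SE, n = 2 each). The Dor-7g mean differed from D4-act-7g by -0.02 ± 0.58, which was 0.85 without Dor-7g replicate 1 and -0.88 without replicate 2. The DOX-7g excess over Dor-7g was likewise 1.46 without Dor-7g replicate 1 and 3.19 without replicate 2.

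Ly6k, a GPI-anchored protein of testis that is needed for sperm function in the mouse, had 2 probesets that did not behave alike. Probeset 17318029 read 7.16 and 5.50 on the D4-act-7g arrays, 7.77 and 7.998 on the Dor-7g arrays, and 8.19 and 6.96 on the DOX-7g arrays. Dor-7g lay above both D4-act-7g arrays, but the D4-act-7g arrays differed from each other by more than either dormant mean differed from theirs. The differences from D4-act-7g were 1.55 ± 0.63 for Dor-7g and 1.24 ± 0.63 for DOX-7g (SE, n = 2 each). Leaving out D4-act-7g replicate 1 or 2 moved the first to 2.38 or 0.72 and the second to 2.08 or 0.41. Probeset 17312196 lay between 5.20 and 5.65 on all 6 arrays, with differences from D4-act-7g of -0.12 in Dor-7g and 0.05 in DOX-7g, so the spread of the first probeset was not seen in the second.

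Ly6d, a surface protein of squamous epithelium and of early B-lineage cells, was nearly flat. Probeset 17318020 read 5.26 on both D4-act-7g arrays, 5.93 and 5.10 on the Dor-7g arrays, and 5.30 and 5.34 on the DOX-7g arrays. The highest value was that of Dor-7g replicate 1, and the group differences from D4-act-7g were 0.26 ± 0.29 for Dor-7g and 0.06 ± 0.29 for DOX-7g. Ly6c1, a marker of monocytes, memory T cells and endothelium, was dim on all 6 arrays and did not enter the fit. Its probeset 17318089 read 4.45 and 3.67 at day 4, 4.11 and 3.53 in Dor-7g, and 3.31 and 3.76 in DOX-7g, and the groups overlapped.

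With limma and a threshold of 0.05 on the adjusted p, 0.984% of 14020 genes (138) were called between Dor-7g and D4-act-7g, 0.956% between DOX-7g and D4-act-7g (134 genes) and 1.16% between DOX-7g and Dor-7g (163 genes). The genes past that threshold included 1, 1 and 2 of the 5 members in the fit. Nothing is read from these counts, since the members were chosen with these comparisons known, Ly6g entered the fit through DOX-7g alone and both dormant groups share the D4-act-7g arrays. At an unadjusted p under 0.05 stood 14.3%, 11% and 11.6% of all genes in the same 3 comparisons, which is the background for the unadjusted counts of gene lists.

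The members had different patterns although they are neighbours. Along chromosome 15 the RefSeq order of the genes around them is Ly6e, Ly6i, Ly6a, Ly6c1, Ly6c2, Ly6a2, Ly6g, Ly6g2 and Ly6f. Between Ly6g and Ly6f lies Ly6g2, which was dim on all 6 arrays at 3.44 to 4.01. Ly6i, beside Ly6e, was dim at 2.96 to 3.30, and Ly6a2, beside Ly6g, stayed at 5.21 to 5.56. Ly6c2, an antigen of monocytes, read 8.37 and 8.28 at day 4, 4.92 and 7.06 in Dor-7g, and 8.32 and 8.02 in DOX-7g. The Dor-7g arrays of Ly6c2 were the 2 lowest, and their difference from D4-act-7g was -2.33 ± 0.66 (limma, adjusted p = 0.206), with an SD of 1.52 between them. Sequences of Ly6 neighbours are similar enough that a probeset named for one gene may also have caught RNA of another, which was not tested.

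**Figure D2:**
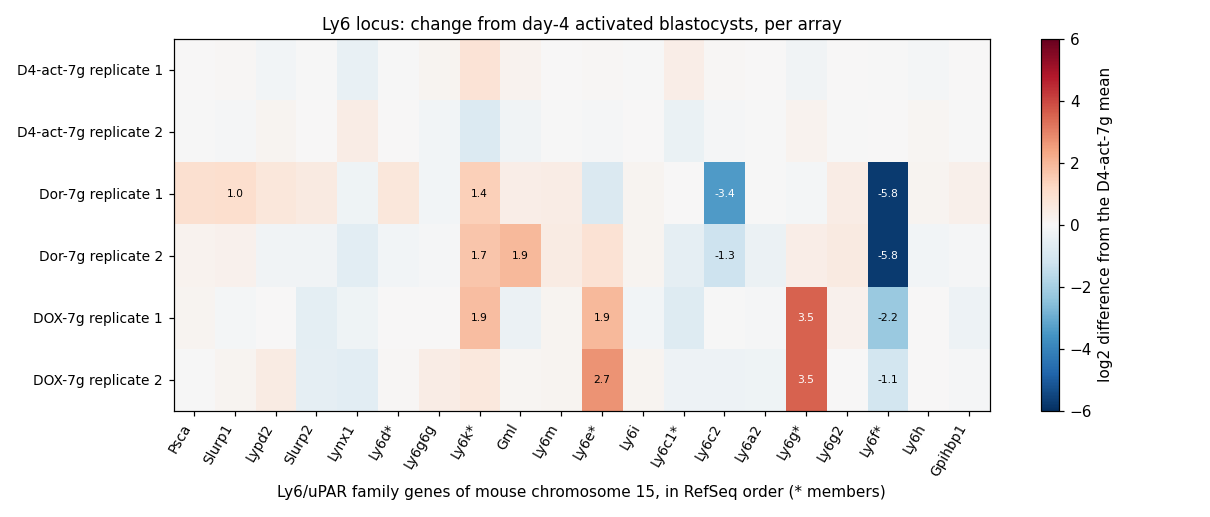
Change of the 20 family genes of the chromosome 15 cluster that have a probeset (x axis, in RefSeq order, members starred) on each array (y axis), as the log2 difference from the mean of the D4-act-7g arrays; numbers are printed where the size is at least 1 log2 unit. Values of that size stand in the columns of Slurp1, Ly6k, Gml, Ly6e, Ly6c2, Ly6g and Ly6f, and the genes beside Ly6g and Ly6f have none.

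Beyond the members, 54 further genes of the LY6/uPAR fold were listed, of which 48 had a probeset, 16 of the 49 probesets being dim on all arrays, and 29 entered the fit. Pinlyp, a phospholipase A2 inhibitor of this fold, fell in Dor-7g. It read 9.50 and 9.24 at day 4, 6.04 and 5.83 in Dor-7g, and 8.48 and 8.07 in DOX-7g. The difference between Dor-7g and D4-act-7g was -3.43 ± 0.22 (limma, adjusted p = 0.00464), and DOX-7g was higher than Dor-7g by 2.34 ± 0.22 (limma, adjusted p = 0.0104). Between DOX-7g and D4-act-7g Pinlyp differed by -1.10 ± 0.22 (limma, adjusted p = 0.13). Leaving out D4-act-7g replicate 1 or 2 ended the first call (limma, adjusted p = 0.066 and 0.0566), and leaving out DOX-7g replicate 1 or 2 ended the second (0.0728 and 0.0525). Pinlyp was the only one of the 29 called in either comparison with Dor-7g.

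No wider-family gene was called by limma between DOX-7g and D4-act-7g, where 3 of 29 had an unadjusted p under 0.05. Between Dor-7g and D4-act-7g 6 of 29 had an unadjusted p under 0.05, and between DOX-7g and Dor-7g 7 of 29, beside 14.3% and 11.6% of all genes. The median difference of the 29 was 0.12 in Dor-7g and -0.14 in DOX-7g against D4-act-7g, beside 0.06 and -0.05 over all genes. Tex101, the testis partner protein of Ly6k in the mouse, read 6.03 and 6.59 at day 4, 4.94 and 4.58 in Dor-7g, and 6.97 and 5.94 in DOX-7g, a Dor-7g difference of -1.55 ± 0.39 (limma, adjusted p = 0.173).

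Cd59a, which blocks the last step of complement attack, read 9.64 and 9.91 at day 4, 6.37 and 9.45 in Dor-7g, and 8.41 and 8.38 in DOX-7g. Its low value was that of Dor-7g replicate 1 alone, and its Dor-7g difference of -1.86 ± 0.92 did not pass (limma, adjusted p = 0.42). Lypd10 was likewise at 4.81 on Dor-7g replicate 1 and at 7.93 on replicate 2, against 7.18 and 7.77 in D4-act-7g (limma, adjusted p = 0.63). Cd59b, a close copy of Cd59a, lay between 7.34 and 8.39 on all arrays (limma, adjusted p = 0.55 in Dor-7g and 0.31 in DOX-7g against D4-act-7g). Without Dor-7g replicate 2, which leaves replicate 1 to stand for its group, 5 of the 29 were called between Dor-7g and D4-act-7g, Cd59a, Ly6c2, Ly6g6e and Lypd10 in addition to Pinlyp, where 8.36% of all genes (1172) were called. With Dor-7g replicate 1 or replicate 2 left out, 1 was called between DOX-7g and D4-act-7g, namely Cd59a, where 2.11% of all genes were called.

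**Figure D3:**
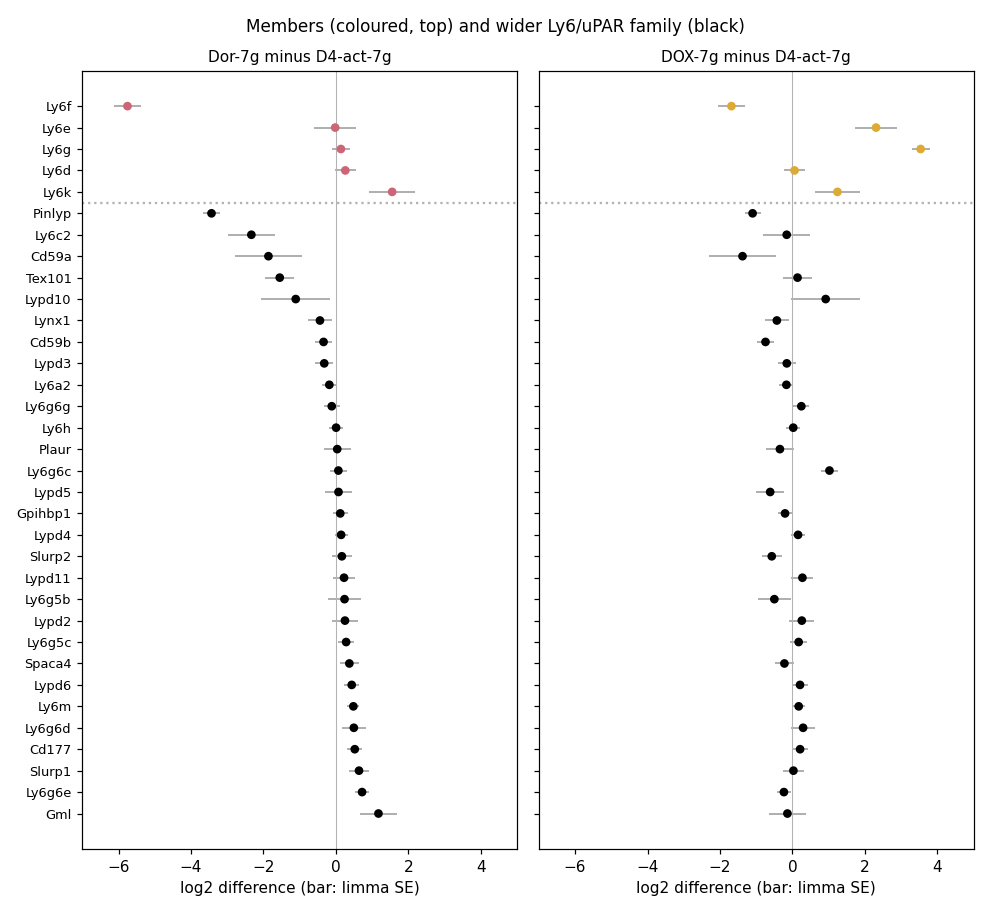
Log2 difference from D4-act-7g (x axis, bars are limma's SE, 2 arrays per group) for the 5 members in the fit (coloured, above the dotted line) and the 29 wider-family genes (black), for Dor-7g at left and DOX-7g at right. Ly6f and Pinlyp lie farthest to the left in Dor-7g, and Ly6g and Ly6e farthest to the right in DOX-7g.

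The GPI anchor that holds most Ly6 proteins is made and attached by enzymes that were measured with 24 genes in the fit. None was called in any of the 3 comparisons by limma, where 5, 4 and 2 of the 24 had an unadjusted p under 0.05 (14.3%, 11% and 11.6% of all genes). The medians were -0.20 in Dor-7g and -0.30 in DOX-7g against D4-act-7g, with 16 and 19 of the 24 differences below 0. Pigv, a mannosyltransferase of the pathway, had a difference of -1.19 ± 0.33 in Dor-7g (limma, adjusted p = 0.199), and Pigh, of the complex for the first step, one of -1.12 ± 0.28 in DOX-7g (limma, adjusted p = 0.203).

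Ly6e and Ly6a are counted among interferon-induced genes, and 17 other interferon-stimulated genes entered the fit, of 32 with a probeset. Their median differences were 0.05 in Dor-7g and 0.18 in DOX-7g against D4-act-7g, with none called by limma in DOX-7g (3 of 17 at an unadjusted p under 0.05, beside 11% of all genes). In Dor-7g the ubiquitin-like gene Ubd rose by 4.57 ± 0.35 (limma, adjusted p = 0.00779) and Socs1, an inhibitor of cytokine signalling, fell by 2.23 ± 0.18 (limma, adjusted p = 0.00971). Between DOX-7g and Dor-7g both were also called, with Ubd lower in DOX-7g (-3.28 ± 0.35; limma, adjusted p = 0.016) and Socs1 higher (1.45 ± 0.18; limma, adjusted p = 0.0298). Both had been known from these arrays when the list was written. No other gene of the 17, Irf7 and Bst2 included, was called in any of the 3 comparisons.

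Because Ly6g marks neutrophils, 15 neutrophil markers were set beside it. Earlier results of these arrays were known when this list was written. S100a9, a subunit of calprotectin, rose with Ly6g in DOX-7g, from 4.49 and 4.60 on the day 4 arrays to 9.55 and 9.55 (difference 5.00 ± 0.26; limma, adjusted p = 0.00112). It also rose in Dor-7g, where Ly6g was dim, to 7.10 and 6.41 (2.21 ± 0.26, limma, adjusted p = 0.0274). S100a9 was dim on both day 4 arrays and entered the fit through its dormant arrays alone. A difference from day 4 was thus built into its entry. S100a8, the other subunit, read 3.28 and 3.16 at day 4, 2.81 and 7.18 in Dor-7g and 10.91 and 10.12 in DOX-7g. Its DOX-7g difference from D4-act-7g of 7.30 ± 1.31 did not pass (limma, adjusted p = 0.0949). S100a8 too entered the fit only through dormant arrays. Prtn3, a neutrophil granule protease, read 6.90 and 6.73 at day 4, 6.42 and 6.38 in Dor-7g, and 8.05 and 7.62 in DOX-7g, and was higher in DOX-7g than in Dor-7g (1.44 ± 0.21; limma, adjusted p = 0.0492).

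Most other blood cell markers were dim, flat or uneven between arrays, while Fcer1g was higher on both DOX-7g arrays than on all other arrays. The part of blood cells in the Ly6g difference was not tested. Ptprc, the CD45 antigen of all white blood cells, was dim on all 6 arrays at 3.57 to 3.82, and Itgam, the CD11b antigen of myeloid cells, was dim at 4.15 to 4.53. Ngp, a granule protein, lay between 4.72 and 5.17, and Camp was dim on 5 of 6 arrays, DOX-7g included at 3.21 and 3.23. Over the 15 markers the summed linear signal was 465 to 502 on the day 4 arrays, 586 to 637 in Dor-7g and 2374 to 3259 in DOX-7g. Without S100a8 and S100a9 it was 432 to 470, 407 to 441 and 513 to 587. The brightest of the remaining 13 in DOX-7g was Prtn3, at 8.05 and 7.62. The mean log2 level of the 13 was 4.77 and 4.78 in DOX-7g, 4.82 and 4.67 in D4-act-7g, and 4.82 and 4.62 in Dor-7g. As a set they were thus not higher in DOX-7g by that measure. Of the 15 markers, 8 or 9 were at or above the array median in D4-act-7g and Dor-7g and 10 in DOX-7g. Of 10 monocyte and macrophage markers 6 entered the fit, and none of these was called in any comparison by limma (2 at an unadjusted p under 0.05 in DOX-7g against D4-act-7g), with Fcer1g at 6.92 and 7.01 in DOX-7g against 5.27 and 5.63 in D4-act-7g (adjusted p = 0.0873). Tyrobp, the signalling adaptor DAP12, read 5.99 and 7.63 in DOX-7g against 5.61 and 5.36 in D4-act-7g (limma, adjusted p = 0.431). Csf1r, the receptor that defines macrophages, lay at 4.55 to 4.97, and Cd68, a lysosomal protein of macrophages, ranged from 6.87 to 9.34 with its highest value in D4-act-7g. The summed linear signal of the 10 was 413 to 899 over the 6 arrays, and 545 to 601 in DOX-7g. Of 8 lymphocyte markers, Cd3g read 6.84 on DOX-7g replicate 1 and 3.82 to 4.90 on the other arrays, and Cd79b ranged from 5.98 in DOX-7g to 7.95 in D4-act-7g.

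**Figure D4:**
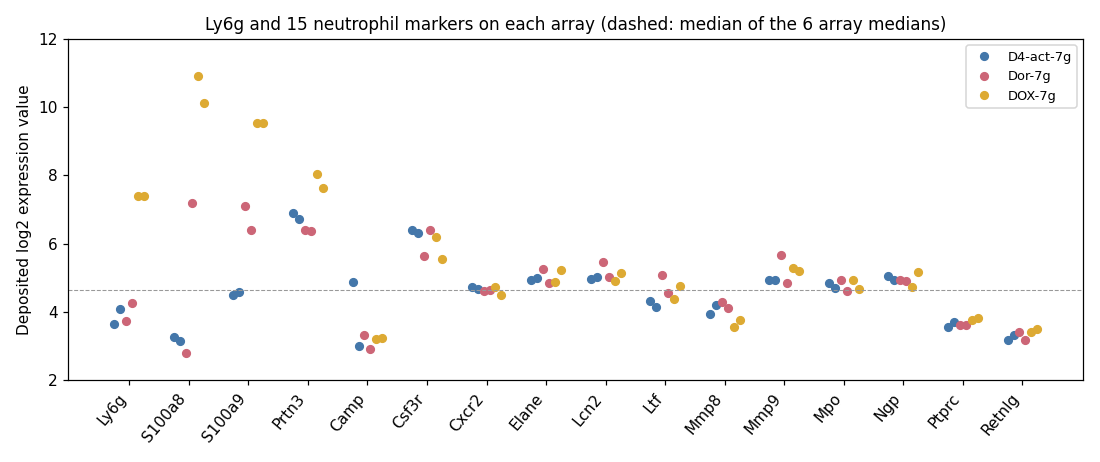
Deposited log2 expression value (y axis) of Ly6g and 15 neutrophil markers (x axis) on each of the 6 arrays, coloured by group; the dashed line is the median of the 6 array medians. Ly6g, S100a8 and S100a9 are raised in DOX-7g, Prtn3 is slightly higher there, and the other 12 markers show no separate DOX-7g points of that size.

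For each member whose values spanned at least 2 log2 units, the 3 genes with the smallest root-mean-square difference from it over the 6 arrays were looked up among the 14020, after each gene's own mean was subtracted. For Ly6f these were Snord49b (difference 0.65 log2 units, Pearson's r = 0.965), Teddm3 (0.68, r = 0.979) and BC048679 (0.76, r = 0.988). BC048679 read 13.01 and 12.76 at day 4, 6.15 and 5.08 in Dor-7g, and 10.61 and 10.85 in DOX-7g, the same order of groups as Ly6f. For Ly6g they were Pramel20 (0.30, r = 0.984), the chemokine gene Ccl3 (0.33, r = 0.984) and the keratin-associated gene Krtap4-13 (0.36, r = 0.988). Ccl3 read 5.05 and 4.76 at day 4, 4.88 and 4.79 in Dor-7g, and 8.83 and 8.44 in DOX-7g.

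For Ly6e the nearest were 4930486L24Rik (0.28, r = 0.980), S100a14 (0.34, r = 0.961) and Snapc3 (0.36, r = 0.958), which share with it a low value on Dor-7g replicate 1. S100a14 read 9.44 and 8.37 at day 4, 7.87 and 9.98 in Dor-7g, and 10.68 and 11.14 in DOX-7g. For the brighter Ly6k probeset they were Snord104 (0.41, r = 0.914), Phf10 (0.42, r = 0.882) and C8g (0.43, r = 0.883). The search picked these genes out of 14020 over 6 arrays that share their groups and normalization, so the correlations describe likeness only.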

How the data were processed

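The authors deposited log2 expression values made with RMA and Partek 6.6, per the submitters' processing notes, whose settings and genome build are not given there. Probesets took their names from the platform annotation, updated through Entrez identifiers to RefSeq symbols (GRCm38.p6, used for names, gene order and promoter sequences): 23521 had 1 symbol, 1814 several and 16010 none, and 193 identifiers found no match. A one-symbol probeset was kept if 2 or more of the 6 arrays reached their own median, and a gene's brightest probeset represented it, giving 14020 genes. A linear model over the 6 arrays, with a mean for each group and eBayes, was fitted in limma 3.58.1 under R 4.3.3 (3 residual and 2.81 prior degrees of freedom), and p-values were adjusted by Benjamini-Hochberg over all genes of a comparison, with a threshold of 0.05. The fit was tested on simulated data. No detection calls were used, so folds against dim groups may be compressed. The number of arrays limits the precision.

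The members, gene lists and naming rule were chosen with earlier results of these data known. Named genes were all members, wider-family genes that were called or the 5 brightest, and the 3 genes most like each member. Of other lists, called genes and some fixed defining markers were named. Where no gene of a list was called, the genes with the smallest p were not always named. Neighbours in the locus, Tex101, Irf7, Bst2, Fcer1g, Tyrobp, Cd68, Cd3g, Cd79b, Dcn, Lum, Muc1, Sox2, Esrrb and genes called without 1 array were named after their values were seen. Of the erythroid markers only Slc4a1 was named on the array (limma, adjusted p = 0.411, 0.996 and 0.496 in the 3 comparisons). No gene of the lymphocyte, endothelial, uterine, trophectoderm, inner cell mass and primitive endoderm lists was called, which does not show that they were level between groups: some differed between arrays, as given above. Replicate numbers were not treated as pairs. Deviations of same-numbered arrays from their group means were little correlated (-0.02, -0.01 and -0.14).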

Additional observations from a re-analysis of the deposited data

How the results depend on the processing

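Alternatives covered the normalization, the filter on dim probesets, the probeset rule, the variance model, a replicate block, array weights, fits of 2 groups only and each array left out in turn. The differences of Ly6f and Pinlyp between Dor-7g and D4-act-7g kept their sign under all 15 alternatives. Ly6e and Ly6g were higher in DOX-7g than in both other groups under every alternative that kept them in the fit (all 15 for Ly6e and 14 for Ly6g). Many alternatives leave a difference of group means as it is, and the arrays compared did not overlap for these genes. The signs could therefore hardly change and are no further support. Genes called between Dor-7g and D4-act-7g numbered 79 with array weights, 82 with the replicate block and 86 with only the 2 groups compared, and 11 to 1172 when single arrays were left out. Between DOX-7g and D4-act-7g they numbered 461 with array weights and 296 with only 2 groups, and 43 to 296 without single arrays. Between DOX-7g and Dor-7g they numbered 104 and 86, and 67 to 880 without single arrays. Members called were 0 to 1, 0 to 2 and 1 to 3 in the 3 comparisons without single arrays. The filter that asks for 4 of 6 arrays removes Ly6g, which left 0 and 1 members called in the DOX-7g comparisons. There 0.706% and 0.957% of 12747 genes were called. With array weights or only 2 groups, 2 members and 1 wider-family gene, Pinlyp (adjusted p = 0.0402) or Cd59a, were called between DOX-7g and D4-act-7g; the cause was not tested. Nothing is read from the counts of members. Wider-family calls without single arrays were 0 to 5, 0 to 1 and 0 to 6. The labels do not say whether same-numbered arrays were handled together. With the replicate block 1, 1 and 2 members were called, as without it, where 0.585%, 0.642% and 0.827% of all genes were called. The spread of Dor-7g, whose arrays correlated at 0.919, limits what its differences can show.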
